A study of Mus musculus with 8 samples.

Results

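Cck, Cckbr and Cckar are the genes of the neuropeptide cholecystokinin (CCK) and of its receptors, here followed through ribosome pull-downs from mouse hippocampus. They were taken by symbol (GENCODE vM21) from the deposited count table, and all 3 are among its 39017 genes. Of the 3, Cck and Cckbr passed the filter on low counts that left 17654 genes for testing, and Cckar did not. The samples are 8 libraries of RNA from translating ribosome affinity purification (TRAP), in which ribosomes tagged with an EGFP fusion of the ribosomal protein L10 are pulled out of tissue with their RNA. All mice carried a Cre recombinase under the control of CCK and the Cre-dependent tag L10-EGFP. Of the 8 libraries 5, the conditional knockout (cKO) group, are from SMARCA3 fl/fl mice, in which Cre deletes the floxed gene Hltf that encodes the chromatin remodeller SMARCA3. The wild-type (WT) group of 3 libraries is from littermates that lack SMARCA3 fl/fl, and whether they carried 1 floxed copy is not given. Each library pools 4 hippocampi, and age, sex and the relation between pools are not given in the sources used here. What the p-values measure is thus the spread among these pools, part of which may be technical. The tag marks cells in which Cre was once active, so the pull-down is not limited to cells that make CCK at the time of sampling.

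CCK is made as a larger precursor that is cut by prohormone convertases, trimmed, sulfated on tyrosine and amidated before release from dense-core vesicles. Its receptors are G protein-coupled receptors that act mainly through Gq, phospholipase C and calcium. CCKAR (the CCK1 receptor) needs the sulfated peptide and is best known in the gut and in some brain nuclei, while CCKBR (the CCK2 receptor) also binds gastrin and is the main receptor of the forebrain. In the hippocampus CCK marks a class of basket interneurons that also carry cannabinoid receptors, and Cck RNA is found in many pyramidal cells as well.

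Cck (ENSMUSG00000032532) lies on mm10 chromosome 9, 121489824 to 121495694, on the minus strand, and its 6 annotated transcripts have 2 to 4 exons. Cckbr (ENSMUSG00000030898) lies on chromosome 7, 105425731 to 105470898, on the plus strand, with 2 transcripts of 5 exons. Cckar (ENSMUSG00000029193) lies on chromosome 5, 53697776 to 53707705, on the minus strand. No annotated gene overlaps any of the 3, so their counts are not shared with an overlapping or antisense gene of this annotation. The nearest coding genes are Trak1 at 14906 bases from Cck, Cavin3 at 9185 bases from Cckbr and Rbpj at 40414 bases from Cckar.

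The coding stretch of the active octapeptide is shown because it is the part of the Cck RNA that becomes the main brain form of the peptide. It was found by translating the longest reading frame of each coding transcript from an ATG to a stop codon. The same stretch was found in 2 of the 5 coding transcripts, Cck-201 and Cck-203. Frames without a stop codon inside the transcript were not searched, so the other coding transcripts may hold the stretch too. Capitals mark the 24 bases of its 8 codons, residues 96 to 103 of 115, and 12 bases are given on either side. The bases before the capitals end in an arginine codon, and those after begin with the glycine codon that donates the amide.
Cck octapeptide codons: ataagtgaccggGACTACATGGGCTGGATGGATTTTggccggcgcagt

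The promoters of Cck and Cckbr are shown because Cck regulatory sequence defines which cells carry the tag, and because CREB, AP-1 and USF factors known to act on the Cck promoter are described below. The windows run from 250 bases before to 50 bases after the start (RefSeq, GRCm38.p6), chr9:121495645-121495944 on the minus strand for Cck and chr7:105425481-105425780 on the plus strand for Cckbr. Capitals mark matches, on either strand, to an E-box (CACGTG), the combined CRE/TRE of Cck (TGCGTCA), a CRE half-site (TGACG), an AP-1 site (TGANTCA), an Sp1 box (GGGCGG) and a TATA box (TATAAA). The letters TGCGTCA were chosen with the Cck promoter in view.
Cck promoter: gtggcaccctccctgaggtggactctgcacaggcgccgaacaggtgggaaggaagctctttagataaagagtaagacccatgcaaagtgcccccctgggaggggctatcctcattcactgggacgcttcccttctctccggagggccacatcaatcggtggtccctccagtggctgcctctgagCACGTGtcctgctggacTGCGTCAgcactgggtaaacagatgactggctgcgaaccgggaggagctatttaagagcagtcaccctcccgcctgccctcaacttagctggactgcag
Cckbr promoter: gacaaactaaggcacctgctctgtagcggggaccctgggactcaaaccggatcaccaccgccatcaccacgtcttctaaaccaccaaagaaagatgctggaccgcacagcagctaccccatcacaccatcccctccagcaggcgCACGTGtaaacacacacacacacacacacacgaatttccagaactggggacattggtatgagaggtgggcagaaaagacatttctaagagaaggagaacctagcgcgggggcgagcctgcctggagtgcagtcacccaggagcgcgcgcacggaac
The Cck window holds an E-box beginning 66 bases before the start and the CRE/TRE beginning 49 bases before it, and the CRE half-site match on the opposite strand lies inside the CRE/TRE. The Cckbr window holds an E-box beginning 106 bases before its start. The AP-1, Sp1 and TATA letters are in neither window. Of 32851 windows of the same length, 7.15% hold the E-box, 2.12% the CRE/TRE, 20.8% the CRE half-site, 7.81% the AP-1 letters, 35.7% the Sp1 box and 13.6% the TATA box. A match is a run of letters and was not tested as a binding site.

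Total counts ran from 31760155 to 61823651 per library. Hltf was at 8.39 to 13.7 CPM (counts scaled to the library total) in WT and at 2.83 to 5.10 CPM in cKO 1 to 4. The library labelled cKO 5 had 11.4 CPM, inside the WT range and against its label, so results are also given without it. Over all 17654 genes, edgeR's quasi-likelihood test with Benjamini-Hochberg adjustment called 0 genes higher (0%) and 0 lower (0%) in cKO at an adjusted p under 0.05. Before adjustment 1540 genes had a p under 0.05, 5.02% of the tested genes higher and 3.7% lower. For Rpl10a, which encodes a ribosomal protein, the log2 fold change was 0.02 (edgeR adjusted p 0.967). At the same adjusted threshold 68 genes were higher and 40 lower by DESeq2, against 3 and 1 by limma-voom. Neither Cck nor Cckbr was among the genes called by any of the 3 tools.

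Cck was abundant in every library and its values overlapped between the groups. WT 1, WT 2 and WT 3 held 631, 573 and 415 CPM of Cck (23744, 28751 and 20107 counts). For cKO 1 to cKO 4 the levels were 618, 571, 589 and 837 CPM, and for the library labelled cKO 5 the level was 691 CPM (18896 to 38775 counts). Only cKO 4 and the library labelled cKO 5 lay above all WT libraries, WT 3 was the lowest of the 8, and the other cKO libraries lay inside the WT range. The WT mean was 539.5 ± 112 CPM (SD, n = 3) and the cKO mean 661.3 ± 108 CPM (SD, n = 5). The fitted log2 fold change of cKO against WT was 0.29 (SE 0.16, 95% interval -0.05 to 0.64), and edgeR gave a p of 0.0876, which became 0.63 after adjustment. The exact permutation test of the CPM, two-sided over 56 splits, gave p = 0.232, where the smallest possible is 0.0179. The interval holds no change and also an increase of up to 0.64 on the log2 scale, so the data do not show that Cck is alike in the 2 groups.

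The size of the Cck difference rested on WT 3, and also on cKO 4 together with the library labelled cKO 5. Without WT 3 the log2 fold change was 0.14 (edgeR adjusted p 0.918), and without WT 1 it was 0.42 (adjusted p 0.89). Without the library labelled cKO 5 it was 0.27 and without cKO 4 it was 0.20. Over the 6 libraries whose numbers occur in both groups, which lack cKO 4 and the library labelled cKO 5, it was 0.13. The direction was upward in each of these settings, and none passed (edgeR, DESeq2 or limma-voom adjusted p 0.459 to 0.951 over 16 alternatives).

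**Figure D1:**
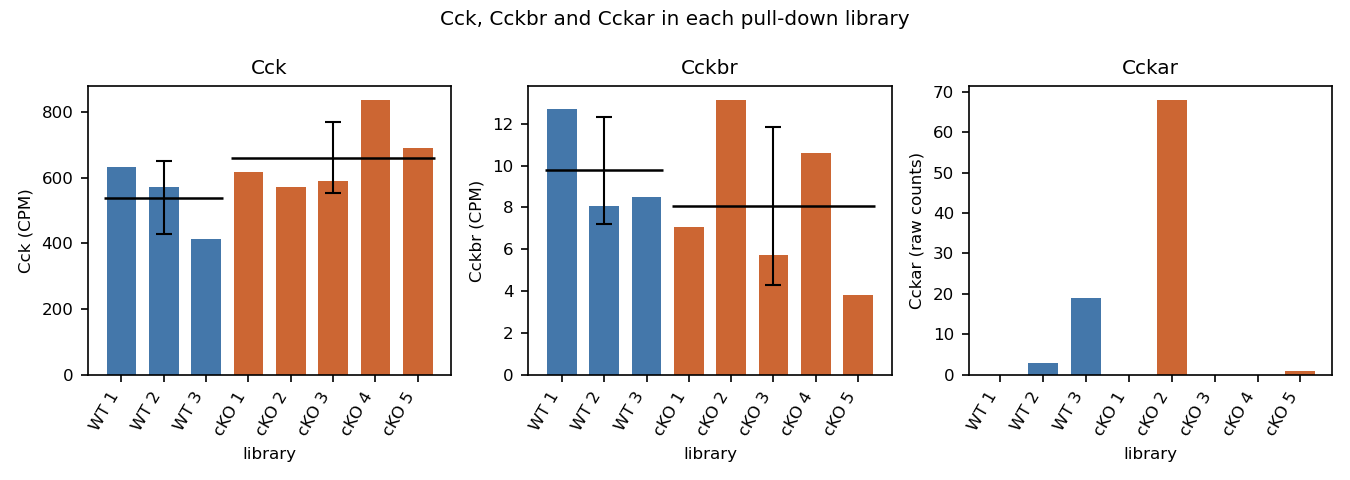
Bars give Cck and Cckbr in CPM and Cckar in raw counts for each of the 3 WT (blue) and 5 cKO (orange) libraries, with the group mean as a horizontal line and its SD as an error bar for Cck and Cckbr. The groups overlap in Cck and Cckbr, and 68 of the 91 Cckar counts stand in cKO 2.

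Markers of neuron classes moved with the libraries that were highest in Cck. The 6 glutamatergic markers summed to 9540 CPM in cKO 4 and 11800 CPM in the library labelled cKO 5, against 7320 to 8390 CPM in the other 6 libraries. Most of that sum was Camk2a (10057 CPM in the library labelled cKO 5), and the median log2 fold change of the 6 markers was 0.00. The 4 GABAergic markers had their lowest sums, 110 and 141 CPM, in cKO 4 and the library labelled cKO 5, against 144 to 198 CPM elsewhere. Sst, a marker of another interneuron class, was at 5.20 and 5.24 CPM there, against 12.3 to 35.9 CPM, while Pvalb, at 1.88 and 1.49 CPM, lay within the 0.977 to 2.64 CPM of the other libraries. The part of this difference in the Cck level was not tested. In whole pull-downs a changed share of cells and a changed RNA level per cell cannot be told apart.

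The pull-down held marker RNA of glutamatergic as well as GABAergic cells, and from which of these cells the Cck RNA came was not tested. Per kilobase of exon, Slc17a7 (the glutamate transporter VGLUT1) had a mean of 63.8 ± 3.31 CPM over the 3 WT libraries and 89.8 ± 8.29 CPM over the 5 cKO libraries (± SD). Gad2 (a GABA-synthesising enzyme) was at 14.7 ± 1.63 and 11.7 ± 2.8, Cnr1 (the cannabinoid receptor of CCK basket cells) at 21.8 ± 1.79 and 23.2 ± 2.59, and Vip at 2.17 ± 0.632 and 1.51 ± 0.671 on the same scale. All 7 CCK interneuron markers were tested, 0 had an unadjusted p under 0.05, and their summed level was 183 to 213 CPM in WT and 162 to 231 CPM in cKO. Most of that sum was Cnr1, at 131 to 170 CPM. The median log2 fold change of the 7 markers was -0.41, and single markers ran from -0.51 to 1.04. Of the 6 glutamatergic markers 2 had an unadjusted p under 0.05, both higher (5.02% of all tested genes were), Slc17a7 and Camk2a, and 0 of 6 passed after adjustment over all genes. Oligodendrocyte markers (6 of 6 tested) summed to 67.8 to 70.8 CPM in WT and 78.5 to 103 CPM in cKO. Of these 6 markers 2 had an unadjusted p under 0.05, both higher (5.02% of all tested genes were), and 0 passed after adjustment. For 3 of them all cKO libraries lay above all WT libraries (3.38% of all tested genes). The median log2 fold change of the 6 was 0.82, and their part in the Cck and Cckbr values was not tested. Markers of astrocytes, oligodendrocyte precursors, microglia and vessels each summed to at most 13.2 CPM, and those of the choroid plexus to 25.3 to 73.3 CPM. In the choroid plexus sum, Kl ran from 18.6 to 41.6 CPM and Ttr from 1.61 to 31.6 CPM. Folr1, with 0 to 5 counts per library, was not tested.

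Cck varied more between libraries of a group than most genes of its level. The SD of its log2 CPM within groups was 0.259, larger than that of 90.7% of the 451 genes whose mean CPM was within 2-fold of its own, where the median SD was 0.149. Cckbr had an SD of 0.609, larger than that of 87.7% of 4103 genes within 2-fold of its mean, where the median was 0.36. Both members were therefore measured with a wide spread, and Cckbr at a far lower depth.

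Cckbr, the receptor of the forebrain, was present at a low level in all 8 libraries and spread over a 3.43-fold range. WT 1, WT 2 and WT 3 held 12.7, 8.09 and 8.51 CPM of Cckbr (478, 406 and 413 counts). For cKO 1 to cKO 4 the levels were 7.05, 13.2, 5.74 and 10.6 CPM (368, 823, 184 and 491 counts), and for the library labelled cKO 5 the level was 3.83 CPM (141 counts). The cKO libraries held both the highest value, in cKO 2, and the 3 lowest values, in the library labelled cKO 5, cKO 3 and cKO 1. The WT mean was 9.77 ± 2.55 CPM (SD, n = 3) and the cKO mean 8.07 ± 3.77 CPM (SD, n = 5).

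The groups overlapped in Cckbr, and the difference was smaller than the spread between libraries. The fitted log2 fold change was -0.27 (SE 0.36, 95% interval -1.07 to 0.53), with an edgeR adjusted p of 0.88 and an exact permutation p of 0.536, two-sided. The interval reaches from a decrease of more than 1 log2 unit to an increase of 0.53. It holds both directions, so the data do not show that Cckbr is alike in the 2 groups. The log2 fold change was -0.10 without the library labelled cKO 5 and -0.04 without WT 1, so its size rested on these libraries. Leaving out cKO 2 moved it the other way, to -0.51 (edgeR adjusted p 0.695, and 0.695 to 0.994 over 16 alternatives). The spread was larger than counting error, as the exact Poisson 95% interval of 141 counts is 119 to 166 and that of 823 counts is 768 to 881. These intervals cover counting error only.

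Cckar, the receptor best known from the gut, gave counts in only 4 of the 8 libraries. WT 1 had 0 counts of it, WT 2 had 3 and WT 3 had 19. Among cKO libraries, cKO 2 had 68 counts, the library labelled cKO 5 had 1, and cKO 1, cKO 3 and cKO 4 had 0. Counts were thus concentrated in cKO 2, at 1.09 CPM, and WT 3, at 0.392 CPM, 1 library of each group. In the 4 libraries without a count, a true level of up to 0.0575 to 0.0935 CPM, or 3 counts, would be compatible with the depth. Pooled over libraries, the WT group had 22 counts, 0.164 CPM of unscaled totals (95% Poisson interval 0.103 to 0.248), and the cKO group 69 counts, 0.298 CPM (0.232 to 0.377). Without cKO 2 the cKO group had 1 count, 0.00589 CPM (0.000149 to 0.0328), and without WT 3 the WT group had 3 counts, 0.0346 CPM (0.00713 to 0.101). These intervals, too, cover counting error only and not the spread between libraries. The difference of mean CPM was 0.0723 (exact permutation p of 0.982, two-sided) and turned to -0.144 without cKO 2 (p of 0.143), so no direction can be given.

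Cckar had 74.7% of its 91 counts in cKO 2. Of 1560 genes with 60 to 140 counts in all, only 100 (6.41%) had at least that share in 1 library, and in 16 of these that library was cKO 2. Sst and Pvalb, markers of other interneuron classes, also summed highest in cKO 2, at 38.5 CPM. In WT 3, which held 19 Cckar counts, their sum was 17.5 CPM. Among libraries with 0 Cckar counts it was 19.6 CPM in WT 1, 23.6 in cKO 1, 21.5 in cKO 3 and 7.08 in cKO 4. The part of these markers in the Cckar counts was not tested.

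Gast, the gene of gastrin, the other ligand of CCKBR, had 4 counts in WT 1 and 0 in the other 7 libraries. These are too few to compare groups, and the level of gastrin RNA allowed by 3 counts in a library without any is at most 0.0935 CPM. Cck was thus the only one of the 2 ligand genes with a measurable level in these pull-downs.

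Ligand and receptor RNA stood at very different levels. Per kilobase of exon, Cck had a mean of 413 ± 85.9 CPM over the 3 WT libraries and 507 ± 83.1 CPM over the 5 cKO libraries (± SD), and Cckbr 3.41 ± 0.892 and 2.82 ± 1.32. On this scale the mean of Cck over the 8 libraries was 155 times that of Cckbr, and they ranked 75 and 9004 among 37693 genes with a length. The exon length of Cck, 1305 bases over all its transcripts, is longer than any 1 transcript (at most 799 bases), so this scale understates Cck.

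The ratio of Cck to Cckbr within a library does not depend on how libraries are scaled. The ratio of their CPM was 49.7 for WT 1, 70.8 for WT 2 and 48.7 for WT 3. For cKO 1 to cKO 4 it was 87.6, 43.4, 103 and 79, and for the library labelled cKO 5 it was 180. Of the 5 cKO libraries 4 lay above all WT libraries, while cKO 2 was the lowest of the 8. The log2 ratio averaged 5.79 ± 0.304 over the 3 WT libraries and 6.47 ± 0.739 over the 5 cKO libraries (± SD), a difference of 0.68 with an exact permutation p of 0.214, two-sided, which is above 0.05. The difference was 0.42 with the library labelled cKO 5 left out (p of 0.286, exact), and 0.94 with cKO 2 left out (p of 0.0571, exact).

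Across the 8 libraries Cck and Cckbr showed no common direction. Pearson's r of their log2 CPM was -0.056 (permutation p of 0.902, exact) and Spearman's rho was -0.214 (p of 0.619, exact permutation). Without WT 3 and cKO 4, the 2 libraries farthest from the median of Cck, r was -0.574 (p of 0.225, exact permutation, n = 6). This was the only relation between members that was tested.

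**Figure D2:**
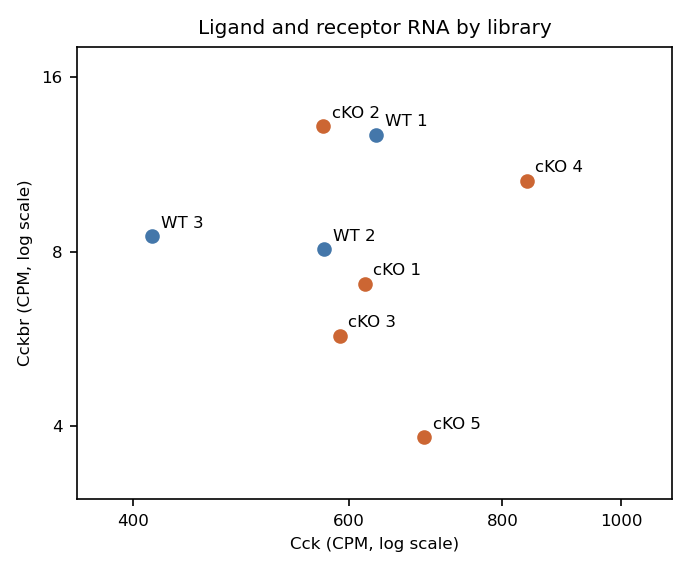
Each point is 1 library, with Cck on the x axis and Cckbr on the y axis, both in CPM on log scales, WT in blue and cKO in orange. The points show no common direction (r of -0.056), and the library labelled cKO 5 lies lowest in Cckbr at 3.83 CPM while cKO 4 lies highest in Cck at 837 CPM.

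Cck stood far above the other neuropeptide precursors in every library. In a list of 19 precursor genes, of which 16 passed the filter, Cck made up 76.5 to 87.7% of the summed CPM per kilobase. It exceeded the next precursor of the same library by a factor of 8.8 to 21.8. Sst (somatostatin) came next at a mean of 23.5 CPM per kilobase over the 8 libraries, followed by Grp (gastrin-releasing peptide) at 19.9 and Penk (proenkephalin) at 19.7. Sst ran from 7.22 in cKO 4 to 49.8 in cKO 2, so the order of Sst, Grp and Penk differs between libraries and their means do not differ beyond that spread. Cckbr, at 3.04 on the same scale, lay near Adcyap1 (PACAP) at 3.14 and below Nmb (neuromedin B) at 4.57. Precursors other than these above Cckbr were Cartpt at 9.17, Npy (neuropeptide Y) at 8.26 and Nts (neurotensin) at 4.87. The Cartpt mean rested on the library labelled cKO 5, at 41.2, while the other 7 libraries lay at 1.47 to 8.70. The Nts mean pools 7.86 ± 1.95 over the 3 WT libraries with 3.08 ± 1.21 over the 5 cKO libraries (± SD). All 5 cKO libraries lay below all 3 WT libraries in Nts, as was the case for 3.82% of all tested genes. Of the 16 tested precursors only Nts had an unadjusted p under 0.05 (log2 fold change -1.35, edgeR adjusted p 0.499). Over all tested genes 8.72% had such a p. The cells were marked through Cck itself, so a high Cck level is not independent of how they were chosen.

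**Figure D3:**
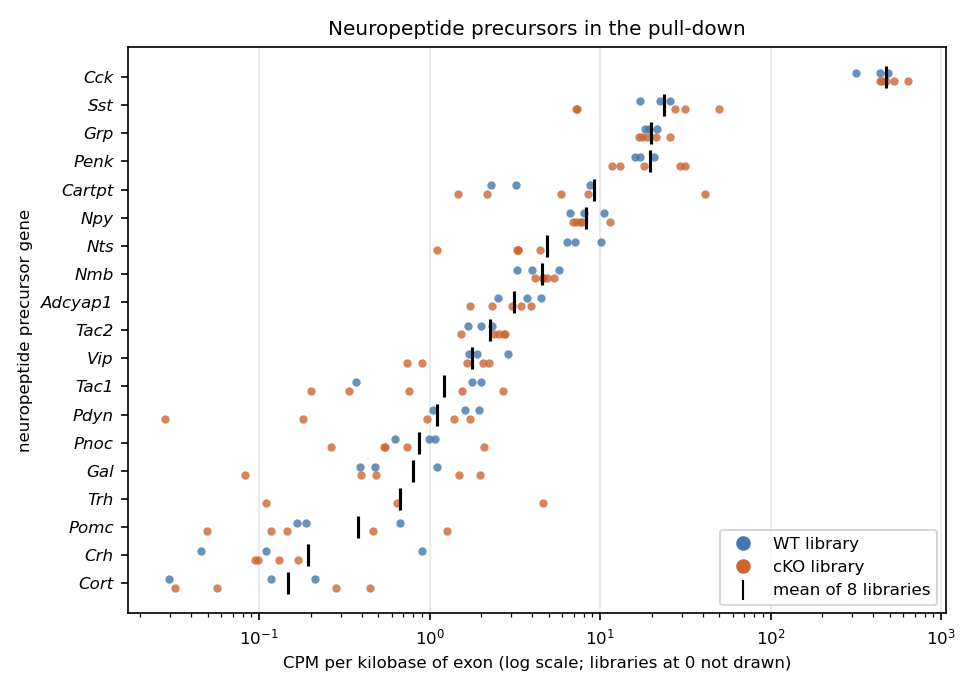
Each row is a neuropeptide precursor gene and each point 1 library, in CPM per kilobase of exon on a log scale, WT in blue, cKO in orange and the mean of 8 libraries as a vertical tick, with libraries at 0 not drawn. Cck lies at 318 to 642, at least 8.8 times the next precursor of the same library.

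The genes whose level followed Cck most closely over the 8 libraries were named among 9151 genes with a mean of at least 10 CPM, by Pearson's r of log2 CPM. They were Gria4 (an AMPA receptor subunit) with r of 0.95, Zdhhc2 (a palmitoyltransferase) with 0.949, Poc1b (a centriole protein) with 0.945, Gaa (the lysosomal alpha-glucosidase) with 0.94 and Fibcd1 with 0.936. Fibcd1, for example, was at 60, 40.2 and 25.4 CPM in WT 1, 2 and 3. It was at 44.8, 36.5, 52, 94.8 and 84.4 CPM in cKO 1 to 4 and the library labelled cKO 5. As with Cck, cKO 4 was highest and WT 3 lowest. The genes most like Cckbr were Mt2 (a metallothionein) with r of 0.941, Zfand5 with 0.938, Fam13a with 0.936, Ap3d1 (a subunit of the AP-3 adaptor) with 0.915 and Mcat (a mitochondrial acyltransferase) with 0.912. Mt2 was at 13.8, 9.92 and 10.9 CPM in WT 1, 2 and 3. It was at 9.77, 14.2, 9.79 and 12.5 CPM in cKO 1 to 4 and at 4.73 CPM in the library labelled cKO 5. As with Cckbr, cKO 2 was highest and the library labelled cKO 5 lowest. These correlations over 8 libraries, picked as the highest of all genes ranked, share library depth and composition, and are a description without a test.

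Which genes were closest depended on single libraries. With a library left out, 0 to 2 of the 5 genes named for Cck and 0 to 4 of the 5 named for Cckbr stayed among the closest 5. None of the 5 stayed for Cck without WT 3 or for Cckbr without cKO 2.

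The genes that make, cut and answer to CCK were followed in 5 lists with 45 genes, of which 41 were tested. None passed after adjustment over all genes. Before adjustment 6 genes were higher and 1 was lower with a p under 0.05, 17.1% of the 41 against 8.72% of all tested genes, and the median log2 fold change was -0.03 against 0.02 over all genes tested. The same median of the 5 lists taken one by one ran from -0.28 to 0.03. Without the library labelled cKO 5 there were 4 higher and 2 lower, and over the 6 libraries without it and cKO 4 there were 4 higher and 3 lower. Leaving out WT 3 gave 3 higher and 1 lower, leaving out WT 1 gave 4 and 1, leaving out cKO 1 gave 7 and 4, and leaving out cKO 4 gave 5 and 4. The share of all tested genes with a p under 0.05 moved as well. It was 8.77% without the library labelled cKO 5, 9.38% over the 6 libraries, 6.07% without WT 3 and 5.36% without WT 1. Without cKO 1 it was 11.7% and without cKO 4 it was 8.08%.

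Among the 10 genes of precursor processing, all tested, Scg5 was the only one whose unadjusted p was under 0.05 (8.72% of all tested genes). Scg5 encodes 7B2, the chaperone of the convertase PC2. WT 1, WT 2 and WT 3 held 92.7, 165 and 83.8 CPM, cKO 1 to cKO 4 held 194, 171, 161 and 257 CPM, and the library labelled cKO 5 held 173 CPM. WT 2 lay above cKO 3, so the groups overlapped. The log2 fold change was 0.75 (SE 0.23), for which edgeR gave p = 0.00673 (adjusted p 0.499) and the exact permutation test p = 0.0357. Pcsk2, which encodes PC2, had means of 181 ± 21.9 CPM (WT) and 190 ± 17.9 CPM (cKO, ± SD over 3 and 5 libraries), and Pcsk1, the other main convertase, means of 7.53 ± 1.17 and 5.15 ± 2.03. Cpe, the carboxypeptidase that trims the cut ends, was at 2449 ± 304 and 2088 ± 375 CPM. Ctsl, a cathepsin known to cut pro-CCK, was at 36.8 ± 1.69 and 26.9 ± 7.35 CPM (edgeR p 0.0502, adjusted p 0.573). Tpst1 and Tpst2, the tyrosine sulfotransferases, had log2 fold changes of -0.10 and -0.33 (edgeR adjusted p 0.936 and 0.759), and Pam, the amidating enzyme, had 0.10 (0.876).

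Of the 4 peptidases that cut CCK peptides, 2 were tested and neither had an unadjusted p under 0.05. Tpp2, which encodes the tripeptidyl peptidase that inactivates the octapeptide, had a mean of 88.6 ± 9.80 CPM over the 3 WT libraries and 82.4 ± 12.3 CPM over the 5 cKO libraries (± SD). Its log2 fold change was -0.10 (SE 0.14, edgeR adjusted p 0.88). Mme, which encodes neprilysin, ranged from 20 to 270 counts per library, with a log2 fold change of -0.45 (edgeR adjusted p 0.899). Enpep and Anpep, with 0 to 4 and 0 to 13 counts per library, were not tested.

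Of the 13 genes of Gq signalling, the pathway of both receptors, 11 were tested. An unadjusted p under 0.05 was found for 2, both higher (5.02% of all tested genes were). Gna11, which encodes a Gq-family alpha subunit, was at 42.1, 45.4 and 41.2 CPM in WT 1, 2 and 3. It was at 56.3, 62.6, 71.1 and 74.2 CPM in cKO 1 to 4 and at 72.6 CPM in the library labelled cKO 5. All 5 cKO libraries lay above all 3 WT libraries, as was the case for 3.38% of all tested genes. The log2 fold change was 0.65 (SE 0.12), for which edgeR gave p = 2.76e-04 (adjusted p 0.47) and the exact permutation test p = 0.0179, the smallest these libraries allow. DESeq2 gave an adjusted p of 0.00197 and limma-voom 0.072, the range over 16 alternatives being 0.00197 to 0.951. Leaving out the library labelled cKO 5 gave 0.62 on the log2 scale. Gnaq, the other main alpha subunit of Gq, had a log2 fold change of -0.03 (adjusted p 0.959 by edgeR), and Plcb1, the main phospholipase C beta of the hippocampus, -0.23 (0.601).

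Among the 6 genes of receptor desensitisation, all tested, Grk2 was the only one with an unadjusted p under 0.05 (8.72% of all tested genes). Grk2, a kinase that phosphorylates active receptors, was at 36.3, 37.6 and 35.5 CPM in WT 1, 2 and 3. It was at 44.4, 48.5, 52.6 and 50.9 CPM in cKO 1 to 4 and at 50.8 CPM in the library labelled cKO 5. All cKO libraries lay above all WT libraries, as was the case for 3.38% of all tested genes. The log2 fold change was 0.44 (SE 0.11), for which edgeR gave p = 0.00221 (adjusted p 0.48) and the exact permutation test p = 0.0179. DESeq2 gave an adjusted p of 0.0297, the range over 16 alternatives being 0.0297 to 0.951. Leaving out the library labelled cKO 5 gave 0.42 on the log2 scale. The arrestin genes Arrb1 and Arrb2 had log2 fold changes of -0.01 and -0.14.

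All 12 factors known to act on promoters like that of Cck were tested. Before adjustment 2 had a p under 0.05 and were higher, and 1 was lower. Among all tested genes 5.02% were higher and 3.7% lower with such a p. Atf4, a CRE-binding factor of the stress response, was at 127, 127 and 112 CPM in WT 1, 2 and 3. It was at 96.1, 92.4, 107 and 97.2 CPM in cKO 1 to 4 and at 102 CPM in the library labelled cKO 5, all below WT, as was the case for 3.82% of all tested genes. The log2 fold change was -0.30 (SE 0.10), for which edgeR gave p = 0.0085 (adjusted p 0.499) and the exact permutation test p = 0.0179. Usf1, which binds E-boxes such as those printed above, had a mean of 4.65 ± 1.35 CPM over the 3 WT libraries and 8.67 ± 3.68 CPM over the 5 cKO libraries (± SD), for which edgeR gave p = 0.0292 (adjusted p 0.54) and the exact permutation test p = 0.143. It was highest in cKO 4 at 13.6 CPM and in the library labelled cKO 5 at 11.6 CPM. Over the 6 libraries without these its log2 fold change was 0.37 in place of 0.90. Leaving out only the library labelled cKO 5 moved the unadjusted edgeR p to 0.0539 for Usf1 and to 0.0647 for Crtc1. Crtc1, a coactivator of CREB, was at 153 ± 4.69 and 188 ± 28.7 CPM (edgeR p 0.0346, adjusted p 0.553), and Creb1 had a log2 fold change of 0.09 (adjusted p 0.904). The AP-1 genes Fos and Jun had log2 fold changes of -0.71 (SE 0.78, edgeR adjusted p 0.851) and -0.12 (SE 0.40, adjusted p 0.962), with Fos at only 3 to 94 counts per library.

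**Figure D4:**
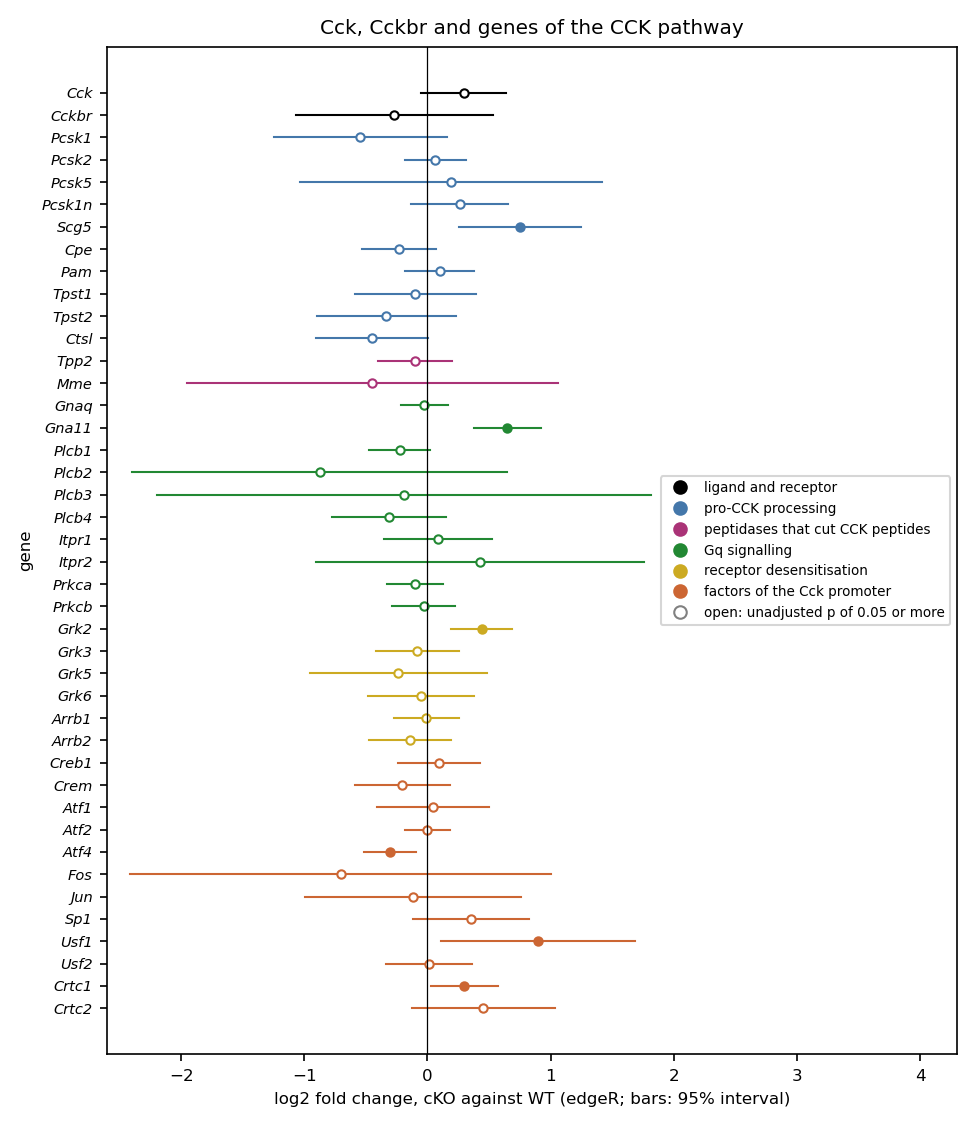
Points give the edgeR log2 fold change of cKO against WT with its 95% interval for Cck, Cckbr and tested genes of 5 lists, with 1 of the 41 not drawn, coloured by list and filled where the unadjusted p was under 0.05. Filled points are Scg5, Gna11, Grk2, Usf1 and Crtc1 above 0 and Atf4 below 0, and none of the points drawn passed after adjustment over all genes.

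**Figure D5:**
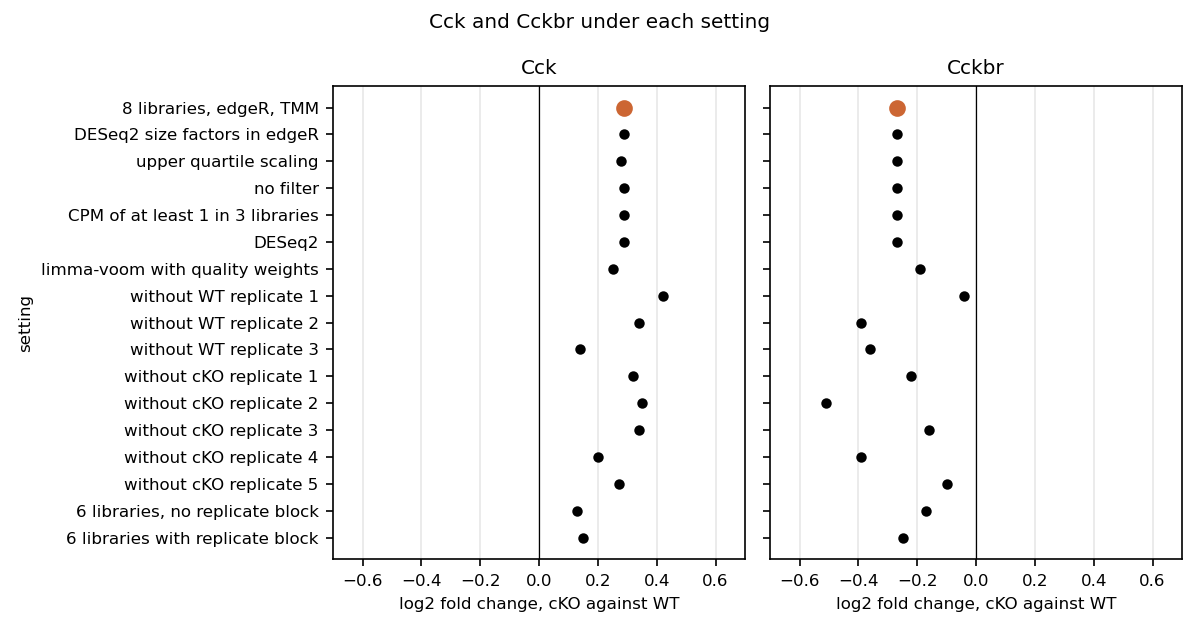
Each point is the log2 fold change of Cck (left) or Cckbr (right) under 1 setting, with the 8-library edgeR value as the larger orange point. Cck lies between 0.13 and 0.42 and Cckbr between -0.51 and -0.04, each on 1 side of 0 in every setting shown.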

How the data were processed

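RNA from TRAP pull-downs was sequenced in 8 libraries. The authors deposited raw counts per Ensembl gene in 1 table. The submitters' processing notes name STAR 2.5.3a, HTSeq and mm10, while the annotation release, strand setting and filters are not given in the sources used here. Symbols, positions and exon lengths came from GENCODE vM21 and matched 96.6% of gene IDs. Genes without a symbol took 0.616 to 0.651% of a library's counts. Counts were tested in R 4.3.3 with edgeR 4.0.16 (TMM scaling, filterByExpr, robust quasi-likelihood fit, two-sided, Benjamini-Hochberg over all tested genes). The procedure was tested on simulated data. CPM use TMM-scaled totals, and log2 CPM a prior count of 2. Single values were compared by exact permutation of group labels, two-sided. Alternatives were other scalings and filters, DESeq2 1.42.0, limma-voom (limma 3.58.1, quality weights), each library left out, and 6 libraries with and without a replicate block. Counts of pathway genes under other settings, and likeness with a library left out, were added after seeing the data. Members and lists were chosen with earlier results of these data known. Named genes are the members, Gast, Hltf, Rpl10a, list members with an unadjusted p under 0.05 (at most 4 a list, otherwise the smallest p), the 5 genes most like Cck and Cckbr, and precursors above Cckbr. Other list members given with values (Pcsk1, Pcsk2, Cpe, Ctsl, Tpst1, Tpst2, Pam, Mme, Enpep, Anpep, Gnaq, Plcb1, Arrb1, Arrb2, Creb1, Fos, Jun and the cell markers) were chosen after their values were seen. A protein table and a Cckar promoter were not used here. One result under this rule is not reported here, though list counts include it.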

Additional observations from a re-analysis of the deposited data

Results flagged for a closer look

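Cckar and Hltf each had 1 cKO library far from the other 4. Cckar reached 1.09 CPM in cKO 2, against 0 to 0.0272 CPM elsewhere in the group, and this distance is 0.975 of the range of the 5 libraries. Hltf reached 11.4 CPM in the library labelled cKO 5, against 2.83 to 5.10 CPM elsewhere in the group, and this distance is 0.737 of the range. Both shares exceed Dixon's critical value of 0.71 for 5 samples. Of 35 groups of values examined 2 did so, and at 1 in 20 chance gives about 1.75. The causes were not tested.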

How the results depend on the processing

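With 1 library left out, the log2 fold change ran from 0.14 to 0.42 for Cck, from -0.51 to -0.04 for Cckbr and from 0.42 to 0.94 for the ratio of Cck to Cckbr. No setting brought any of them past its threshold. For the ratio over 6 libraries, with or without a replicate block, the exact test has too few rearrangements of the labels to reach a p under 0.05. The mean CPM difference of Cckar ran from -0.144 to 0.192 with 1 library left out, turning to -0.144 without cKO 2 and to -0.00312 without WT 1. The causes of these and the following changes were not tested. Genes called higher and lower over all genes numbered 2 and 0 without a filter, 2 and 0 where 3 libraries had to reach a CPM of 1, 68 and 40 by DESeq2, 3 and 1 by limma-voom, 5 and 5 over 6 libraries, and 0 and 0 with each library left out. Pathway genes at an unadjusted p under 0.05, counted under other settings after seeing the data, numbered 3 to 7 higher and 1 to 4 lower with 1 library left out. The share of all tested genes with such a p ran from 4.65% to 11.7% with 1 library left out. Under the other settings 2 pathway genes were lower with either other scaling, with either other filter and by DESeq2, 5 by limma-voom, and 3 over 6 libraries. Over all tested genes the share was 8.74% and 8.75% with the other scalings and 8.17% and 9.57% with the other filters. It was 10.5% by DESeq2, 12.8% by limma-voom, and 9.38% over 6 libraries without a replicate block. In those 6 libraries, the fit with a replicate block gave 3 higher and 4 lower, 0.15 for Cck, -0.25 for Cckbr and 0 genes called in either direction. Same-numbered libraries had correlations of their deviations over all tested genes of -0.0849, 0.0173 and 0.0406. These values show no pairing and cannot exclude one, as each WT deviation is from a mean of only 3 libraries. Tpp2 turned to 0.02 over 6 libraries with and without the block. Of 128 comparisons of 8 single pathway genes, 2 went past the threshold (Gna11 and Grk2 by DESeq2), 2 turned (Tpp2) and the other 124 did neither. With Spearman's rho in place of Pearson's r, 1 of the 5 genes named for Cck and 3 of the 5 for Cckbr stayed, and with deviations from the group mean 1 and 2 stayed. Cckar was left out by the filter in the 8-library fit, so its fitted values were not reported. The low counts of Cckar and Gast limit what can be said of them, and the spread between libraries limits Cckbr.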
